A study of Mus musculus with 12 samples.

Results

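Adipokines are proteins that fat tissue secretes into the blood or its own surroundings. The genes of 10 of them were followed here: the hormones Adipoq, Lep and Retn, the complement protease Cfd, the retinol carrier Rbp4, the NAD-producing enzyme Nampt, and the secreted factors Metrnl, Rarres2, Itln1 and Sfrp5. They were chosen as known adipokines and matched by gene symbol, though with earlier results of these data known, and all 10 matched 1 row each among the 27179 genes of the count table. The tissue was epididymal white adipose tissue (eWAT), the fat pad attached to the epididymis of male mice, which was profiled by RNA sequencing. All 12 mice were male C57BL/6J on chow. In the vehicle group 6 mice received saline into the peritoneum, and in the epinephrine group 6 mice received epinephrine in saline at 0.5 mg/kg by the same route; fat was collected 1 h later. Listed ages were 12 to 17 weeks in the vehicle group and 18 to 23 weeks in the epinephrine group, so listed age and treatment cannot be told apart. Libraries are named by group and replicate number, and the study's title places the stress cytokine Gdf15, beta-adrenergic lipolysis and anxiety at its centre.

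Adiponectin, leptin and adipsin are made mostly by adipocytes, and in mice so is resistin. Epinephrine acts on adrenergic receptors of the adipocyte, raises cyclic AMP and starts the breakdown of stored triglyceride. Adipokine release is known to follow the state of the fat stores and of the sympathetic nerves over hours to days.

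The libraries held between 24821601 and 34405433 gene counts. A value after ± is the SD over the 6 mice of a group, unless it is given as a standard error. The treatment was visible in each mouse: Gdf15 measured 1.21 ± 0.391 CPM (counts scaled to a common library size with TMM factors) with vehicle and 17.6 ± 7.77 CPM with epinephrine (adjusted p of 0.000108 in edgeR), without overlap. Markers of the epididymis varied widely between libraries of both groups. A list of 19 epididymis markers took 0.00108% to 4.96% of counts among vehicle and 0.00329% to 3.64% among epinephrine libraries, and vehicle 2, epinephrine 1 and epinephrine 2 each gave over 0.5% of counts to the epididymal gene Gpx5 alone. The adipocyte score, which is the mean log2 CPM of 14 adipocyte markers that include none of the 10 genes, was 10.5 ± 0.621 with vehicle and 10.7 ± 0.507 with epinephrine (two-sided p = 0.688 by exact permutation, 0.983 adjusted for 3 measures). Its lowest values were 9.37 in vehicle 2 and 9.76 in epinephrine 1. In tissue RNA, fewer adipocytes and less RNA per adipocyte cannot be told apart.

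None of the 9 adipokine genes that could be tested passed the threshold, an edgeR adjusted p of 0.05 over 16175 genes. Over all tested genes, 2.65% were called higher and 3.58% lower with epinephrine, so 9 genes would give less than 1 call at that rate and the 0 calls are no result about adipokines. At an unadjusted p under 0.05 there was 1 member, Metrnl, where 17.2% of all genes passed. In DESeq2 0 members were called as well, where 4.03% of all genes were higher and 4.63% lower. Scaling by library size alone, in place of TMM, moved the median of all genes to -0.11 and the calls over all genes from 428 higher and 579 lower to 360 (2.23%) and 1448 (8.95%), and again called 0 members. With the replicate number as a block, 385 genes were higher (2.38%) and 365 lower (2.26%), with 0 members among them. The groups overlapped in all 9, where 2.04% of all genes lay wholly higher and 2.74% wholly lower with epinephrine. The median log2 fold change of the 9 genes was 0.18, against -0.000594 over all genes tested. Of the 9, 7 were positive, as were 8061 of all 16175 genes, and 6 were with upper quartile scaling or library size alone. The 9 genes come from the same 12 libraries, so their signs are not independent. What the data do give is an interval for each gene. With the adipocyte score as a covariate 1 of the 9, Cfd, was called lower, where 11.9% of all genes were. That is near the share over all genes, so it too is no result about adipokines as a set.

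Levels of different genes were compared per base of gene length, in units scaled to the sum over all genes of a library (TPM). Cfd was the most abundant gene of the whole table in the vehicle group, at 25510 ± 7706 TPM, and ranked 2 in the epinephrine group, at 19222 ± 5413 TPM. Adipoq followed with ranks 15 and 17 and Retn with ranks 41 and 40. Rarres2 and Rbp4 were level with each other at means of 454 and 453 TPM over the 12 libraries, and Rarres2 was the higher of the pair in 6 of 12. Lep, at a mean of 358 TPM, was below Rbp4 in 11 of 12 libraries. Nampt averaged 77.4 TPM and Metrnl 28.8 TPM. Sfrp5, at 27.6 TPM, could not be separated from Metrnl, which was the higher in 7 of 12 libraries. The steps from Cfd to Adipoq, Adipoq to Retn, Retn to Rarres2, Lep to Nampt and Nampt to Metrnl held in 12 of 12 libraries. Together the 10 genes took between 0.726% of counts, in vehicle 2, and 1.91%, in vehicle 6.

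**Figure D1:**
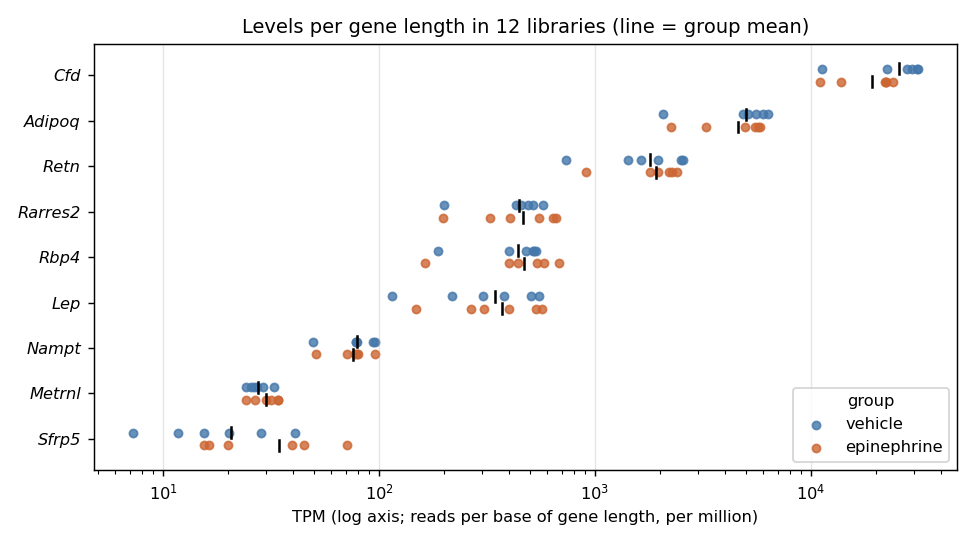
Levels of 9 adipokine genes in TPM on a log axis, with a point for each of the 12 libraries (blue, vehicle; orange, epinephrine) and a line at each group mean. Cfd lies highest at 25510 and 19222 TPM, the groups overlap in every gene, and the lowest point of Adipoq, Retn, Rarres2, Rbp4, Lep and Nampt belongs to vehicle 2 or epinephrine 1.

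The promoters of the hormone genes Adipoq, Lep and Retn and of Cfd are shown because these genes hold most of the adipokine reads and were low in the same libraries. Each line gives the 250 bases before the transcription start on the plus strand of GRCm38.p6, from RefSeq: Adipoq chr16:23146286-23146535, Lep chr6:29059971-29060220, Retn chr8:3655520-3655769 and Cfd chr10:79890603-79890852. Capitals mark matches on either strand to TTNNGNAA, a loose form of the site bound by C/EBP factors, which are transcription factors of adipocyte differentiation.
Adipoq: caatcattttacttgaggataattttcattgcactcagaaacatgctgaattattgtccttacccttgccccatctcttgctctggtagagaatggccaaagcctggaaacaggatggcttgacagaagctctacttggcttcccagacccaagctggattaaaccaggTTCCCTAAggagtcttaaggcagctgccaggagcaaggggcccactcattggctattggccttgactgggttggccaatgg
Lep: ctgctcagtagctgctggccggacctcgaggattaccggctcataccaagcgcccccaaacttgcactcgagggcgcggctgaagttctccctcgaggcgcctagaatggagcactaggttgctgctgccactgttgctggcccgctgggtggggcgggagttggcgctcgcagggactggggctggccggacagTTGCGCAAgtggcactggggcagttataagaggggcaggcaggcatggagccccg
Retn: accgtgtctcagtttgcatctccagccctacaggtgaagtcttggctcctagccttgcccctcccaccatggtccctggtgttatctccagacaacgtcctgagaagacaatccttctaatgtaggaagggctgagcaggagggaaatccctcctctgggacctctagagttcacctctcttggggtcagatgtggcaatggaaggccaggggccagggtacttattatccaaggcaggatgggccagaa
Cfd: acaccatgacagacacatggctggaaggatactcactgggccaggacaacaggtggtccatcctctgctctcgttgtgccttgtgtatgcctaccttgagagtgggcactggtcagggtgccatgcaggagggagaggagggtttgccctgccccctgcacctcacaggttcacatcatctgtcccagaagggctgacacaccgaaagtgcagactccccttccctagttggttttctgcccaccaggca
Lep held the palindrome TTGCGCAA at bases -55 to -48, and Adipoq held TTCCCTAA at bases -81 to -74, while Retn and Cfd had no match in this window. TTNNGNAA was found in 4 of 10 windows of 9 members (Rarres2 had no entry) and in 36.85% of 32851 promoter windows of the same length. The full cyclic AMP response element TGACGTCA was in 0 of the 10 windows and in 1.55% of all windows. Its shorter form TGACG was in 3 of the 10, those of Nampt and Sfrp5 and 1 of the 2 windows of Rbp4, and in 17.8% of all windows. The letters TATAAA were in 1 of the 10, a window of Rbp4, against 12.4% of all. These matches describe letters in a short window and not binding.

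Adipoq (Entrez 11450, chromosome 16, positions 23146536 to 23157968) encodes adiponectin, the insulin-sensitizing hormone of the adipocyte. It ranged from 1145 CPM in vehicle 2 to 3363 CPM in vehicle 6, with a vehicle median of 2918 CPM, and from 1310 CPM in epinephrine 1 to 3395 CPM in epinephrine 5. In both groups 1 or 2 libraries were low and the others lay close together. The means were 2706 ± 844 CPM in the vehicle group and 2657 ± 856 CPM with epinephrine (log2 fold change -0.03 with a standard error of 0.30; adjusted p of 0.987 in edgeR). The 95% interval ran from 0.628-fold to 1.54-fold, so a doubling or a halving of adiponectin mRNA lay outside it. Without the 3 libraries of high Gpx5, the interval of the log2 fold change narrowed to between -0.18 and 0.34.

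Lep (Entrez 16846, chromosome 6, positions 29060221 to 29073876) encodes leptin, which reports the size of the fat stores to the brain and which sympathetic stimulation is known to restrain. It varied more than Adipoq between mice, 5.26-fold over the 12 libraries against 2.97-fold. Vehicle libraries ran from 169 CPM in vehicle 2 through a median of 475 CPM to 825 CPM in vehicle 5, and epinephrine libraries from 227 CPM in epinephrine 1 to 889 CPM in epinephrine 4. The ranges lay almost on top of each other. The means were 499 ± 254 and 568 ± 248 CPM (log2 fold change 0.19 with a standard error of 0.41; adjusted p of 0.915 in edgeR). The interval, 0.616-fold to 2.11-fold, leaves out a halving and not a doubling.

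Retn (Entrez 57264, chromosome 8, positions 3655770 to 3659818) encodes resistin, a cysteine-rich hormone that opposes insulin action in mice. Its lowest libraries were vehicle 2 at 427 CPM and epinephrine 1 at 552 CPM, and its highest were vehicle 5 at 1514 CPM and epinephrine 5 at 1457 CPM. Of the 6 epinephrine libraries 5 lay above the vehicle median of 991 CPM, and 0 above the vehicle maximum. The means were 1027 ± 418 and 1166 ± 333 CPM (log2 fold change 0.18 with a standard error of 0.31; adjusted p of 0.885 in edgeR), with an interval of 0.708-fold to 1.82-fold.

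Cfd (Entrez 11537, chromosome 10, positions 79890853 to 79892655) encodes adipsin, or complement factor D, the serine protease that cleaves factor B and so starts the alternative complement pathway. Vehicle libraries held 10829, 4664, 8802, 11664, 13181 and 13138 CPM in replicates 1 to 6. Epinephrine libraries held 4765, 6017, 9691, 9775, 10513 and 9402 CPM. All 6 epinephrine libraries lay below the vehicle median of 11247 CPM, while vehicle 2 was the lowest of all 12. The means were 10380 ± 3239 and 8361 ± 2363 CPM (log2 fold change -0.31 with a standard error of 0.28; adjusted p of 0.69 in edgeR), so the difference was within the spread between mice.

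The adipocyte score was itself taken after treatment, and 11 of its 14 markers had a positive log2 fold change. Its mean was 0.135 higher with epinephrine, so a difference from the score can come from the markers as well as from the gene. The mean of Cfd minus this score changed by -0.43 with epinephrine, and that change includes the 0.135 rise of the score. What moved either was not tested. Read against this score, Cfd separated the groups. Its log2 CPM exceeded the score by 2.93, 2.82, 2.60, 2.67, 2.63 and 2.69 in vehicle 1 to 6, and by 2.46, 2.16, 2.35, 2.20, 2.35 and 2.26 in epinephrine 1 to 6. Every epinephrine library lay below every vehicle library on this measure, as did 1.19% of all tested genes, and Cfd was the 1 member to do so; 1.11% of all genes and 0 members lay wholly higher. With the adipocyte score as a covariate in edgeR, Cfd was lower with epinephrine at 0.751-fold (log2 fold change -0.41, SE 0.06, 95% interval -0.55 to -0.27, adjusted p of 0.00126 in edgeR). That fit called 11.9% of all genes lower and 7.72% higher, and the edgeR adjusted p of Cfd stayed under the threshold when any of the 12 libraries was left out (0.00174 to 0.00584), without the 3 libraries of high Gpx5 (0.0246) and with the replicate number as a block (0.0215). The covariate was 1 of 16 alternatives to the fit without it, and of these 16 it was the only one in which Cfd passed. The difference from the score in each library and the refits with another scaling, a left-out library or the block on top of the covariate were added after seeing the data.

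Adipoq gave a smaller difference of the same sign in the same fit (log2 fold change -0.16 with a standard error of 0.06; adjusted p of 0.0878 in edgeR), which did not pass. With the score as a covariate and scaling by library size alone its adjusted p was 0.0186, and without vehicle 5 it was 0.022. Cfd was at 3.86 ± 0.309 times the CPM of Adipoq with vehicle and 3.20 ± 0.267 times with epinephrine. The ratio ran from 3.47 to 4.14 among vehicle and from 2.91 to 3.64 among epinephrine libraries, an overlap that came from epinephrine 1. Given the score, Retn was at a log2 fold change of 0.10 (95% interval -0.11 to 0.30) and Lep at 0.08 (-0.29 to 0.45). Whether a shift in the makeup of the tissue moved Cfd was not tested beyond these scores.

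**Figure D2:**
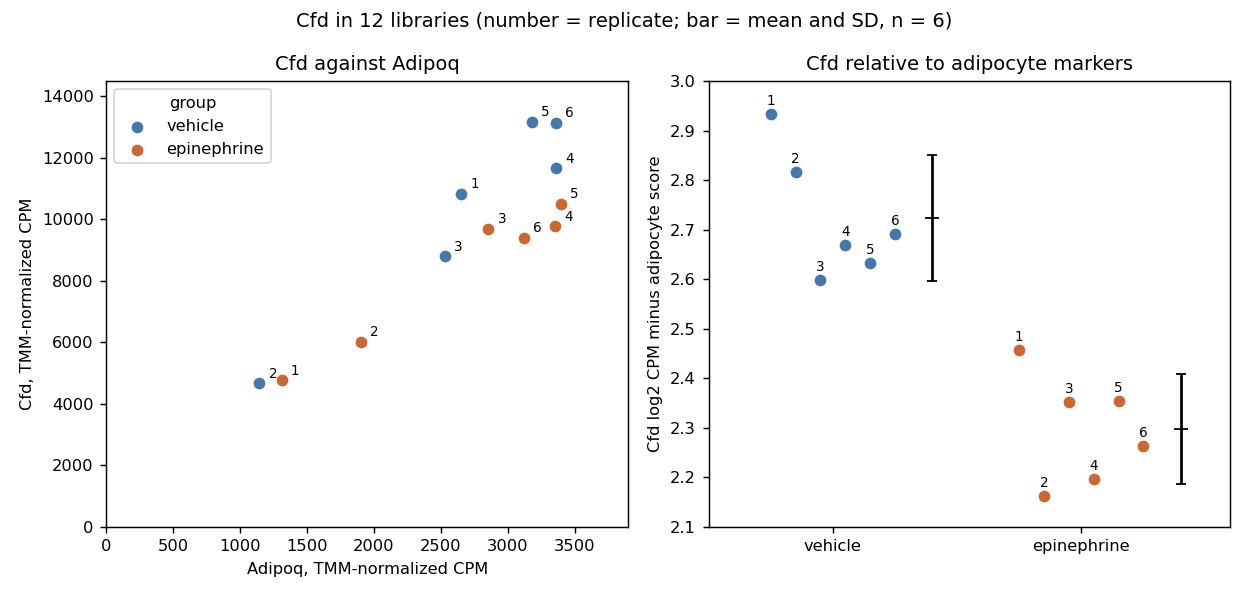
Left, Cfd against Adipoq in CPM for each library; right, the log2 CPM of Cfd minus the adipocyte score, with the mean and SD of each group (n = 6; the axis does not start at 0). Vehicle libraries lie between 2.60 and 2.93 and epinephrine libraries between 2.16 and 2.46 on the right, while the groups overlap in Cfd alone on the left.

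Rbp4 (Entrez 19662, chromosome 19, positions 38116620 to 38125321, minus strand) encodes the plasma carrier of retinol, which liver and fat secrete. It ran from 110 CPM in vehicle 2 to 319 CPM in vehicle 5 and from 100.1 CPM in epinephrine 1 to 427 CPM in epinephrine 4. Of the epinephrine libraries 3 lay above the vehicle maximum and 3 below the vehicle median of 277 CPM. The means were 251 ± 77.5 and 286 ± 112 CPM (log2 fold change 0.19 with a standard error of 0.33; adjusted p of 0.886 in edgeR), and given the adipocyte score the log2 fold change was 0.01 (95% interval -0.25 to 0.26).

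Nampt (Entrez 59027, chromosome 12, positions 32820335 to 32853369) encodes the enzyme that sets the rate of NAD salvage and is also secreted. It was the steadiest of the abundant members. Apart from vehicle 2 (101 CPM) and epinephrine 1 (109 CPM), all libraries lay between 150 and 200.1 CPM. The means were 159 ± 36.1 and 162 ± 30.2 CPM (log2 fold change 0.03 with a standard error of 0.17; adjusted p of 0.972 in edgeR). Its interval of 0.785-fold to 1.33-fold is the narrowest after that of Metrnl.

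Metrnl (Entrez 210029, chromosome 11, positions 121702427 to 121717389) encodes meteorin-like, a secreted factor of muscle and fat linked to cold and exercise. It stayed between 27.5 and 34.2 CPM in the vehicle group and between 28.2 and 39.4 CPM in the epinephrine group. The 4 libraries epinephrine 3 to 6 lay above all vehicle libraries, and epinephrine 1 and 2, of high Gpx5, lay within them. The means were 29.8 ± 2.76 and 34.9 ± 4.48 CPM (log2 fold change 0.23 with a standard error of 0.09 and a 95% interval of 0.02 to 0.43; adjusted p of 0.227 in edgeR). Without the 3 libraries of high Gpx5 the log2 fold change was 0.33 (SE 0.08, adjusted p of 0.0282 in edgeR), a fit that called 4.87% of all genes higher. In limma-voom with sample weights it was 0.30 (SE 0.08, limma-voom adjusted p = 0.0228), where 6.34% were called higher. Metrnl passed in these 2 of 16 alternatives only. By library size alone its log2 fold change was 0.12 (95% interval -0.08 to 0.31, adjusted p of 0.511 in edgeR). It was 0.22 with the replicate block (-0.01 to 0.45, adjusted p of 0.274 in edgeR) and 0.13 within numbers 1 to 3 alone (adjusted p of 0.931 in edgeR).

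Rarres2 (Entrez 71660, chromosome 6, positions 48569696 to 48572845, minus strand) encodes chemerin, a chemoattractant for macrophages and other cells with the receptor Cmklr1. It was low in vehicle 2 (64.2 CPM) and between 142 and 171 CPM in the other vehicle libraries. Epinephrine 1 to 3 lay at 65.8, 109 and 135 CPM and epinephrine 4 to 6 at 224, 214 and 179 CPM, the latter above every vehicle library. The means were 138 ± 37.7 and 154 ± 62.1 CPM (log2 fold change 0.16 with a standard error of 0.30; adjusted p of 0.897 in edgeR). Within replicate numbers 4 to 6 alone the log2 fold change was 0.47 (SE 0.10, adjusted p of 0.0321 in edgeR; 4.4% of all genes called higher), and within numbers 1 to 3 alone it was -0.29 (SE 0.43, adjusted p of 0.953 in edgeR; 0% called higher), and the difference between these was not tested. Exons of Rarres2 share 892 bases with Lrrc61 on the opposite strand in GENCODE. Because the strand setting of the counts is not given in the sources used here, reads of the 2 genes cannot be told apart there. Lrrc61 itself held 515 to 1043 counts per library, against 1770 to 5368 for Rarres2.

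Sfrp5 (Entrez 54612, chromosome 19, positions 42197971 to 42202252, minus strand) encodes a secreted protein that binds Wnt5a and blocks its signal. It was the most variable member, 10.4-fold over the 12 libraries. Vehicle libraries ran from 6.22 CPM in vehicle 2 through a median of 14.8 CPM to 33.5 CPM in vehicle 4, and epinephrine libraries from 13.9 CPM in epinephrine 2 to 64.9 CPM in epinephrine 4. Epinephrine 4, 5 and 6 were the 3 highest of all 12 libraries. The means were 17.1 ± 9.84 and 31.0 ± 19.9 CPM (log2 fold change 0.86 with a standard error of 0.47; adjusted p of 0.409 in edgeR), and the interval reached from 0.885-fold to 3.72-fold. Leaving out 1 library moved the log2 fold change between 0.49, without epinephrine 4, and 1.18, without vehicle 4. It was 0.05 (SE 0.46) within numbers 1 to 3 alone, 1.29 (SE 0.50) within numbers 4 to 6 alone and 1.03 (95% interval 0.06 to 2.00) without the 3 libraries of high Gpx5, and none of the 16 alternatives called Sfrp5.

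Itln1 (Entrez 16429, chromosome 1, positions 171518123 to 171535325, minus strand) encodes intelectin-1, or omentin, a sugar-binding lectin. Only 1 read fell on it in the whole series, in vehicle 5, and the other 11 libraries had 0. A count of 0 allows a level of up to 0.0872 to 0.121 CPM, depending on the library, for counting error only. No fold is given.

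**Figure D3:**
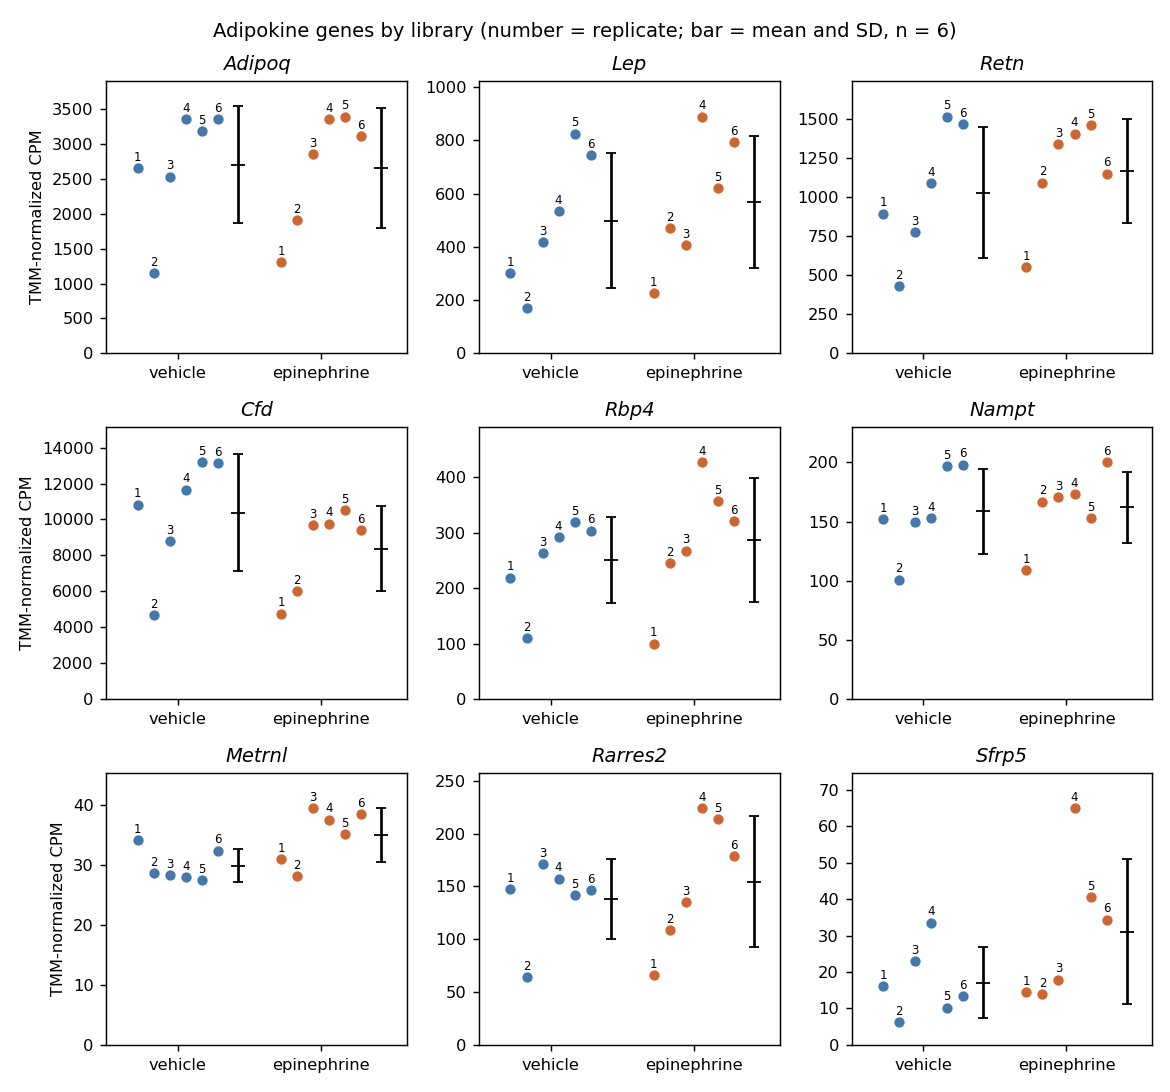
TMM-normalized CPM of 9 adipokine genes in each library (number, replicate; blue, vehicle; orange, epinephrine), with the mean and SD of each group (n = 6). Vehicle 2 is the lowest or second-lowest of the 12 libraries in every gene but Metrnl, and the epinephrine mean of Cfd, 8361 CPM, lies below its vehicle mean of 10380 CPM.

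**Figure D4:**
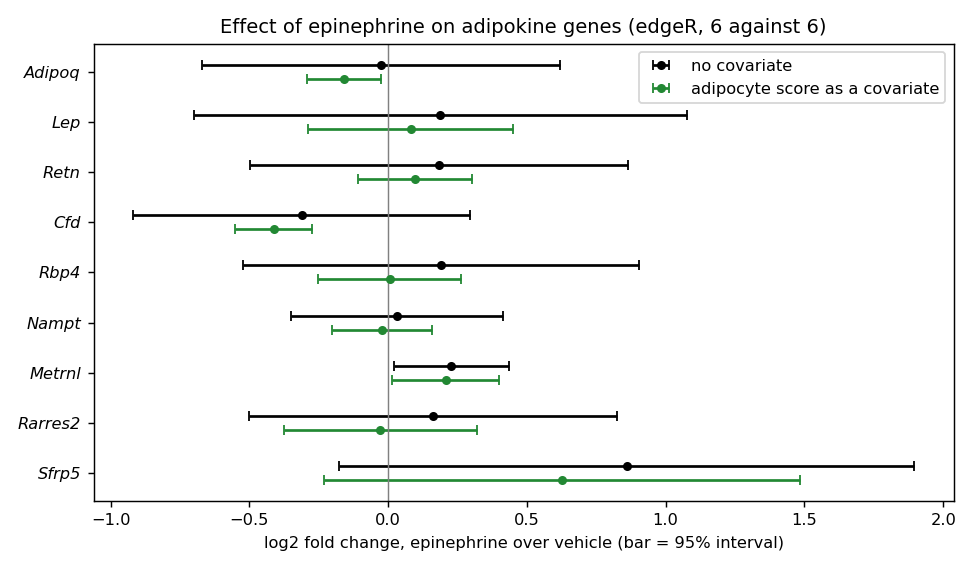
Log2 fold change of each gene with its 95% interval, without a covariate (black) and with the adipocyte score as a covariate (green). Without it the intervals cross 0 in all genes but Metrnl (0.02 to 0.43), where 17.2% of all genes had an unadjusted p under 0.05. With it those of Cfd (-0.55 to -0.27), Adipoq (-0.29 to -0.03) and Metrnl (0.01 to 0.40) do not. These intervals are not adjusted, and the share of all genes whose interval leaves out 0 in that fit was not counted. After adjustment only Cfd passed, where 11.9% of all genes were called lower and 7.72% higher.

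Over the 12 libraries together, most members were lower where epididymis markers were higher, but the score also went with replicate number and, within each group, with listed age. It was 5.37 to 9.84 in vehicle 1 to 3 and -1.80 to 4.71 in vehicle 4 to 6, and 6.47 to 9.80 in epinephrine 1 to 3 and -0.18 to 2.91 in epinephrine 4 to 6. The permutations treat the 12 libraries as exchangeable, which takes no account of this shared structure, so their p-values may be too small. Against the epididymis score, the mean log2 CPM of the 19 epididymis markers, Adipoq gave r = -0.81 (permutation p = 0.00055, adjusted p = 0.00266 over 9 genes) over 12 libraries, and a rho of -0.85 (p = 0.00091 by permutation, 0.00349 after adjustment). Lep gave r = -0.83 and rho = -0.83, Cfd r = -0.81 and rho = -0.78, Nampt r = -0.79 and rho = -0.84, Retn r = -0.76 and rho = -0.83, and Rbp4 r = -0.73 and rho = -0.82 (permutation tests; adjusted p of these r and rho 0.00266 to 0.00606). Rarres2 gave r = -0.69 (permutation p = 0.0126, adjusted p = 0.0162) and a rho of -0.62 (p = 0.0378 by permutation, 0.0485 after adjustment). Metrnl and Sfrp5 did not pass, with r = -0.38 and r = -0.38 and rho = -0.23 and rho = -0.30 (permutation tests; adjusted p of r 0.221 for both, and of rho 0.473 and 0.386).

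Without vehicle 6 and epinephrine 6, the 2 libraries farthest from the median score, r was -0.87 for Adipoq, -0.83 for Lep, -0.88 for Cfd and -0.80 for Rarres2. Without the 3 libraries of high Gpx5 it was -0.71 for Adipoq, -0.77 for Lep and -0.54 for Cfd, but -0.13 for Rarres2, whose relation rests on those libraries. Within the vehicle group r was -0.77 for Adipoq (exact permutation p = 0.0597) and -0.92 for Retn (exact permutation p = 0.00833), and within the epinephrine group -0.86 (exact permutation p = 0.00972) and -0.63 (exact permutation p = 0.132). For Metrnl and Sfrp5 it was -0.28 and -0.10 within the vehicle group (exact permutation p = 0.592 and 0.85). Within the epinephrine group it was -0.71 and -0.83 for them (exact permutation p = 0.128 and 0.0667). For Rarres2 r was -0.50 within the vehicle group (exact permutation p = 0.332), with a rho of 0.03. Within the epinephrine group its r was -0.87 (exact permutation p = 0.0319), with a rho of -0.77. Within numbers 1 to 3, over 6 libraries, r was -0.98 for Cfd, -0.90 for Adipoq, -0.83 for Rarres2, -0.70 for Rbp4 and -0.68 for Nampt. There it was -0.67 for Metrnl, -0.64 for Retn, -0.59 for Sfrp5 and -0.46 for Lep. Within numbers 4 to 6, over 6 libraries, r was -0.80 for Nampt, -0.47 for Lep, -0.38 for Retn, -0.29 for Metrnl and -0.21 for Cfd. It was positive for Adipoq (0.33), Rbp4 (0.21), Rarres2 (0.32) and Sfrp5 (0.52). The relation that Adipoq, Rbp4 and Rarres2 gave over 12 libraries did not hold there. This division by number was added after seeing the data and was not tested. Both measures come from the same library totals, and the part this plays in the relation was not tested.

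**Figure D5:**
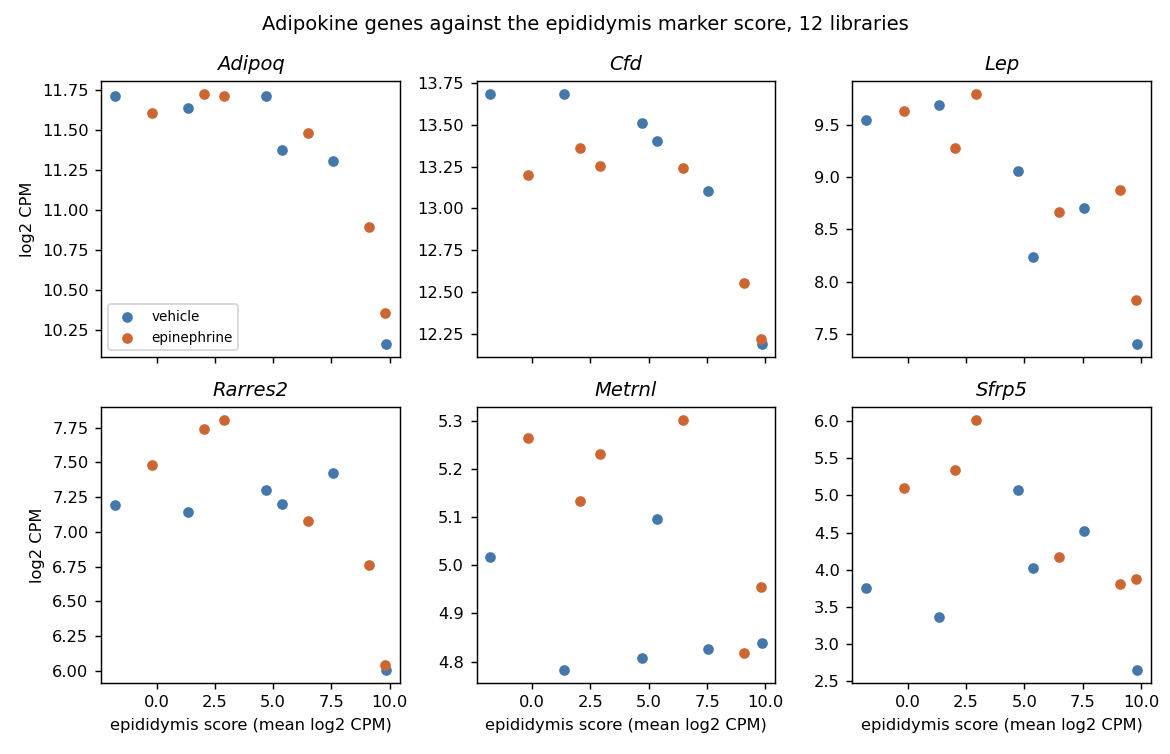
Log2 CPM of 6 adipokine genes against the epididymis score, with a point for each library (blue, vehicle; orange, epinephrine). Adipoq, Cfd, Lep and Rarres2 are lowest in the libraries with the highest scores (9.84 in vehicle 2 and 9.80 in epinephrine 1). Over the 12 libraries together r was -0.38 for Metrnl and for Sfrp5, though it differed between the groups.

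Genes with the most similar profile were found by Pearson's r of log2 CPM over the 12 libraries, among 10676 named genes whose log2 CPM averaged 3 or more; as the best of so many, these r carry no test. Closest to Adipoq were Apoe (r = 0.994, rho = 0.930) and Marchf2 (r = 0.993, rho = 0.930), and closest to Retn were Bcap31 (r = 0.994, rho = 0.944) and Lpl, the lipoprotein lipase gene (r = 0.992, rho = 0.951). For Rbp4 they were Pon2 (r = 0.992, rho = 0.986) and Hspa12a (r = 0.992, rho = 1.00), for Rarres2 Klhl13 (r = 0.992, rho = 0.972) and Dbn1 (r = 0.985, rho = 0.965), and for Cfd Sh3glb2 (r = 0.988, rho = 0.951) and Eci1 (r = 0.988, rho = 0.937). Lep was nearest to Tdrd7 (r = 0.979, rho = 0.958) and Chsy1 (r = 0.971, rho = 0.993), and Nampt to Vps26a (r = 0.972, rho = 0.930) and Aspa (r = 0.955, rho = 0.902). Metrnl and Sfrp5 had looser neighbours, Pcf11 (r = 0.927, rho = 0.909) and Fbxo30 (r = 0.853, rho = 0.769) for Metrnl and Parva (r = 0.917, rho = 0.895) and Gnao1 (r = 0.913, rho = 0.874) for Sfrp5.

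Receptors and partners of the adipokines were counted from lists of known roles. For adiponectin, 0 of 8 receptor and assembly genes passed in either direction (median log2 fold change 0.09); the receptors Adipor1 and Adipor2 were at 139 ± 7.42 and 891 ± 351 CPM in the vehicle group and 143 ± 8.64 and 817 ± 180 CPM with epinephrine. Ero1a and P4hb, which help disulfide bonds form, were nearest the threshold (adjusted p of 0.29 and 0.678 in edgeR). Both passed in 1 of 16 alternatives, the fit with the adipocyte covariate. Of 11 tested C1q and TNF-related paralogs 0 passed (median -0.09), with C1qtnf12 and C1qtnf2 nearest (adjusted p of 0.488 and 0.518 in edgeR). C1qtnf2 passed only with the adipocyte covariate, in the fit that called 11.9% of all genes lower and 7.72% higher.

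For leptin, 0 of 6 genes of the receptor and its signalling rose and 1 fell. That gene was Sh2b1, an adaptor of the kinase Jak2, at 65.2 ± 3.78 CPM in the vehicle group and 57.0 ± 2.14 CPM with epinephrine (log2 fold change -0.19 with a standard error of 0.05; adjusted p of 0.043 in edgeR). Its call ended with the replicate block (adjusted p of 0.145 in edgeR), with RLE scaling (0.103) and without any 1 of 10 of the 12 libraries, with values of up to 0.185 without vehicle 4. The receptor gene Lepr was at 5.94 ± 0.324 and 6.09 ± 0.906 CPM.

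For resistin, 0 of 6 relatives and proposed receptors passed (median -0.17). Retnla, which encodes a resistin-like protein of alternatively activated macrophages, was at 428 ± 141 and 364 ± 124 CPM (adjusted p of 0.818 in edgeR). Cap1 and Tlr4 were nearest the threshold (adjusted p of 0.653 and 0.758 in edgeR).

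For adipsin, 0 of 11 genes of the alternative complement pathway passed without a covariate (median 0.03). C5ar2, a receptor of complement fragment C5a, was nearest at 3.75 ± 1.04 and 1.89 ± 0.643 CPM (log2 fold change -0.99 with a standard error of 0.29; adjusted p of 0.0683 in edgeR). C3, the central complement component, was at 3354 ± 938 and 2661 ± 788 CPM (log2 fold change -0.33 with a standard error of 0.27; adjusted p of 0.633 in edgeR). With the adipocyte score as a covariate both passed, C5ar2 at -1.12 (adjusted p of 0.000388 in edgeR) and C3 at -0.44 (adjusted p of 0.0246 in edgeR), in the fit that called 11.9% of all genes lower. C5ar2 passed in 8 of 16 alternatives, among them DESeq2 (adjusted p of 0.0133), limma-voom (0.00571), library size alone (0.0222) and the epididymis covariate (0.0216), and C3 only with the adipocyte covariate. Factor B, the substrate of adipsin encoded by Cfb, was at 269 ± 71.9 and 296 ± 90.1 CPM (log2 fold change 0.14, adjusted p of 0.898 in edgeR).

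For retinol, 0 of 19 transport and retinoic acid genes passed (median 0.19), though Rbp7 did in 8 of 16 alternatives and Rarg in 5. Rbp7, an intracellular retinol-binding protein gene, was nearest, at 33.2 ± 11.9 and 62.3 ± 19.4 CPM (log2 fold change 0.91 with a standard error of 0.29; adjusted p of 0.106 in edgeR, and 0.039 with the replicate block). The retinoic acid receptor gene Rarg was next (log2 fold change -0.48 with a standard error of 0.16; adjusted p of 0.11 in edgeR, and 0.0286 with the replicate block). Of 13 NAD salvage genes 0 passed (median -0.10), Naprt and Nadsyn1 being nearest at -0.53 and -0.27 (adjusted p of 0.153 and 0.227 in edgeR). Naprt passed in 6 of 16 alternatives, among them the adipocyte covariate (adjusted p of 0.00028 in edgeR), and Nadsyn1 in 2.

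Of the 3 chemerin receptor genes 0 passed (median 0.21), though Ccrl2 did in 6 of 16 alternatives. Ccrl2, which binds chemerin without signalling, was at 7.80 ± 3.63 and 20.3 ± 10.9 CPM (log2 fold change 1.38 with a standard error of 0.41; adjusted p of 0.0757 in edgeR, and 0.0168 with the replicate block). Cmklr1, the signalling receptor, was at 214 ± 75.8 and 217 ± 78.3 CPM, and Gpr1 was low at 1.66 ± 0.564 and 1.92 ± 0.943 CPM. Metrn and Kit, the paralog of Metrnl and its reported receptor, did not pass (log2 fold change 0.35 and 0.06; adjusted p of 0.592 and 0.947 in edgeR). Metrn did in 2 of 16 alternatives, without the libraries of high Gpx5 and in numbers 4 to 6 alone.

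Of 9 Wnt genes around Sfrp5, 1 was higher and 1 lower (median -0.04). Wnt5a, the ligand that Sfrp5 binds, fell to 0.677-fold with epinephrine (means 31.3 ± 2.69 and 21.2 ± 2.47 CPM; log2 fold change -0.56 with a standard error of 0.09; adjusted p of 0.00265 in edgeR). The vehicle libraries lay between 28.9 and 35.8 CPM and the epinephrine libraries between 17.9 and 25.5 CPM, without overlap. The frizzled receptor gene Fzd5 rose 1.96-fold, from 17.6 ± 2.03 to 34.4 ± 2.97 CPM (log2 fold change 0.97 with a standard error of 0.09; adjusted p of 0.000108 in edgeR), also without overlap. Within numbers 1 to 3 alone, where 0% of all genes were called in either direction, neither passed (adjusted p of 0.234 for Wnt5a and 0.181 for Fzd5 in edgeR), and within numbers 4 to 6 alone Wnt5a did not (0.0708).

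Among 27 other secreted proteins of fat, 3 were higher and 0 lower (median 0.02). Among those higher, Vegfa, the endothelial growth factor gene, rose 2.42-fold to 809 ± 252 CPM (adjusted p of 0.00318 in edgeR). Nts, the neurotensin precursor gene, rose 16.5-fold from 0.254 ± 0.135 to 4.22 ± 1.75 CPM (adjusted p of 0.000345 in edgeR). Vehicle libraries held as little as 0.0723 CPM of Nts. Its log2 fold change was 4.05 in edgeR and 0.95 on the deposited log2-like values, so the size of the fold depends on the scale. Lists are short and were chosen with results of these data known, so their counts are read only beside the 2.65% and 3.58% over all genes.

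Markers of the cells in the pad were checked beside the adipokines. Of 14 adipocyte markers 0 passed (median 0.11; Acsl1 and Plin4 nearest, adjusted p of 0.63 and 0.8 in edgeR), and none was at 0. None passed among 19 epididymis (Rnase9 and Lcn5 nearest, 0.866 and 0.895), 12 mesothelial (Lrrn4 and Gpm6a, 0.574 and 0.605), 12 macrophage (Cd14 and Ccr2, 0.0502 and 0.127), 5 neutrophil (Elane and Csf3r, 0.203 and 0.825) and 7 liver and intestine markers (Alb and Ahsg, 0.216 and 0.302; all edgeR adjusted p). Of the macrophage markers (median -0.09, 3 of 12 positive), Cd14 was close to the threshold at 43.3 ± 22.5 and 106 ± 31.8 CPM (2.45-fold), and it passed in 11 of 16 alternatives, including DESeq2 (adjusted p of 0.00349) and the replicate block (0.0218 in edgeR). Ccr2 was at 56.3 ± 18.1 and 29.4 ± 12.4 CPM (0.523-fold) and passed in 5 of 16. Elane passed only with the adipocyte covariate and Ahsg only with the epididymis covariate. Of 12 fibroblast and progenitor markers (median -0.16, 2 of 12 positive), F3 was higher and 0 lower (adjusted p of 0.0114 in edgeR). Of 10 endothelial markers (median -0.01, 4 of 10 positive), Cldn5 was higher and 0 lower (adjusted p of 0.0355 in edgeR). The call of Cldn5 ended without any 1 of 8 libraries (vehicle 1, 3, 5 or 6, or epinephrine 3 to 6), with adjusted p of up to 0.0847 in edgeR. The mesothelial score ran from 4.89 to 6.01 among vehicle and from 5.40 to 5.74 among epinephrine libraries, and the macrophage score from 5.15 to 6.19 and from 5.00 to 6.42; their part in the adipokine values was not tested.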

How the data were processed

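Per the labels' protocols, eWAT RNA of 12 mice was purified on RNeasy columns after TRIzol, and a SMARTER mRNA-Seq kit was used for sequencing libraries. In the submitters' processing notes appear mm10 and, without versions or roles, cutadapt, HISAT2, featureCounts, FastQC and DESeq2. Neither strand setting nor annotation is named in the sources used here. The authors deposited whole-number counts per gene for 27179 genes, with gene lengths, and variance-stabilized values on a log2-like scale for 20185 genes. No 2 libraries held identical counts. The 1312 rows without a symbol stayed in library sizes and tests.

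The genes and lists were chosen with earlier results of these data known. Genes were filtered with filterByExpr (minimum count 10, total 15), scaled with TMM and tested with edgeR 4.0.16 (quasi-likelihood F test, robust) in R 4.3.3, with Benjamini-Hochberg adjustment over 16175 genes; 9 of the 10 adipokine genes passed the filter. Log2 CPM used a prior count of 1. TPM were computed from the counts and the deposited lengths. Named were the 10 genes, from each list those past the threshold (at most 4) or else the 2 with the smallest p, and the 2 nearest profiles. Gdf15 and Gpx5 served as checks. Lrrc61, Adipor1, Adipor2, Lepr, Retnla, Cfb and Cmklr1 fall outside that rule and were named for their roles after their values were seen. One gene that the rule names is not reported here. Alternatives were other scalings and filters, DESeq2 1.42.0, limma 3.58.1 (voom and on the deposited log2-like values), covariates, the replicate block, subsets and leaving out each library. Permutation tests between groups were exact and cannot go below p = 0.00216. Those of relations over 12 libraries used 100000 resamples, and those of relations within a group were exact.

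The numbers that name replicates are those of the sample titles. Libraries of one number deviated together in 6 of 6 pairs (correlation across genes 0.262 to 0.799), but so did other pairs within numbers 1 to 3 or within 4 to 6 (0.150 to 0.827). On simulated counts the test recovered 51.0% of 98 genes changed 2-fold and 87.8% of 98 changed 4-fold among 15999 genes for this comparison, and the 95% interval held the true value in 94.9% of the former. Each gene was drawn separately, without the variation that many genes of a library share here. These values therefore do not give the power or the coverage for the adipokine genes, and smaller folds were not simulated. Each tested adipokine gene had at least 172 counts in each library.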

Additional observations from a re-analysis of the deposited data

Results flagged for a closer look

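Vehicle 2 was flagged against the other 5 vehicle libraries in 2 adipokine genes. Adipoq was at 1145 CPM there, against 2533 CPM in the next lowest, and Rarres2 at 64.2 CPM, against 142 CPM. In both the gap to the next library was a larger part of the group's range (0.626 and 0.723) than Dixon's 95% limit for 6 libraries. Chance flags about 1 in 20 groups, and both groups of all 9 tested members were looked at. The 2 flags fall on the same library and are not independent. Vehicle 2 had the highest epididymis score (9.84) and the lowest adipocyte score (9.37) of the 12 libraries; the part of these in the low values was not tested. Without vehicle 2 the log2 fold change of Adipoq was -0.16 (adjusted p of 0.688 in edgeR).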

How the results depend on the processing

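Over the settings run, members stayed at 0 called with RLE, upper quartile or no scaling beyond library size, other filters, DESeq2, limma on the deposited values, the epididymis covariate and the replicate block, and 1 was called in each of 4: higher in limma-voom with weights and without the high-Gpx5 libraries (Metrnl) and in numbers 4 to 6 alone (Rarres2), and lower with the adipocyte covariate (Cfd). With the replicate block, which pairs libraries by number, 365 genes in all were lower, against 579; the block called 0 members and ended or made no call but those of Sh2b1, Rbp7, Rarg, Ccrl2 and Cd14 among the genes named. All genes called lower and higher were 1448 and 360 by library size alone, 873 and 760 in DESeq2, 1503 and 1026 in limma-voom, 967 and 643 with the epididymis covariate, 1925 and 1249 with the adipocyte covariate, 1028 and 786 without the high-Gpx5 libraries, 0 and 0 in numbers 1 to 3 alone, 632 and 696 in numbers 4 to 6 alone, and 185 and 228 at a threshold of 0.01. Log2 fold changes of Nampt turned to -0.000759 with upper quartile scaling, -0.070 by library size alone, -0.023 with the adipocyte covariate and -0.061 in numbers 4 to 6. Adipoq turned to 0.046 in limma-voom, 0.00247 on the deposited values, 0.018 with the epididymis covariate and 0.079 without the high-Gpx5 libraries. Library size alone also turned Cap1 (-0.025) and Kit (-0.061). Limma-voom turned Rnase9 (-0.00876) and Lcn5 (-0.10), as did the epididymis covariate (-0.13 and -0.17), and Gpx5 turned to 0.38 on the deposited values. The adipocyte covariate turned Rarres2 (-0.028), Gpr1 (-0.024) and Gpx5 (0.50). Numbers 1 to 3 alone turned Rarres2 (-0.29), Metrn (-0.024), Kit (-0.34) and Csf3r (0.84), and numbers 4 to 6 alone turned Retn (-0.022). The cause was not tested. Leaving out 1 library gave 317 to 549 genes higher and 276 to 797 lower (276 without vehicle 4, 797 without epinephrine 1), 0 members, and log2 fold changes of -0.16 to 0.11 for Adipoq, -0.045 to 0.12 for Nampt, -0.026 to 0.29 for Kit, -0.94 to 2.05 for Gpx5, -0.22 to 1.68 for Lcn5 and -0.059 to 1.83 for Rnase9; the group difference ran from -0.10 to 0.32 in adipocyte score, -0.74 to 1.59 in epididymis score and -0.462 to 0.806 in percent of epididymis counts.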
